A study of Mus musculus with 2 samples.

Results

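The strongest distal peaks of mouse spleen chromatin are 534 of the 60683 DNase-seq peaks of replicate 2, or 0.88%. They were chosen on signal and position in 3 steps. A peak had to lie in the top 10% of the shorter deposited peak list of replicate 2, which held 6070 peaks with a signal of 6.7858 or more. It had to stay clear of the 1 kb on either side of every start site in the basic GENCODE annotation, for all gene types, which left 615 peaks. It then had to overlap, by at least 1 base, a peak in the top 20% of replicate 1, that is 1 of 8506 peaks with a signal of 3.8297 or more among 42454. Of the 615, 80 overlapped only a weaker peak of replicate 1 and 1 overlapped none, and these 81 are described beside the 534. Signal in either library is therefore what selected these regions and is given as a description.

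DNase-seq sequences the places where the nuclease DNase I cuts nuclear DNA, so that a peak marks accessible chromatin and a footprint marks a short stretch inside it that is spared from cutting. The 2 libraries came from spleen tissue of female mice aged 36 days of the F1 hybrid B6CASTF1/J. They form 1 group, biological replicates 1 and 2, with no treatment and no control group, so no conditions could be compared and every value below describes these libraries. The descriptions number the females differently but both libraries carry the same donor entry, so the spread between them may be technical in part. The tissue was whole, so the number of cells of a type and the accessibility per cell cannot be told apart.

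Accessible sites away from promoters include enhancers, where factors that define a cell type bind, insulators, which the zinc finger protein CTCF occupies, and promoters that an annotation does not list. Promoters of broadly expressed genes are often rich in CpG dinucleotides and carry sites of NFY, of the SP and KLF zinc finger proteins, of NRF1 and of CREB or ATF. In lymphocytes and myeloid cells, enhancers often carry sites of the ETS factor PU.1, of RUNX, of EBF1 and of the E proteins. Transfer RNA genes are transcribed by RNA polymerase III, whose factor TFIIIC binds a sequence inside the gene, the B box.

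The sequences that the results turn on are printed first, to show the consensus letters by which the strongest distal peaks are described below. Each is the reference sequence of the mouse assembly mm10, from 30 bases before to 30 bases after a match, 5′ to 3′ on the strand of the consensus, with the match in capitals. The peaks shown are among the best ranked single-copy peaks that hold the consensus, and matches in exonic peaks were left out. Matches were searched on both strands in the 200 bases around each peak's midpoint. A match is a description of letters and not a site. Some peaks, such as those near Cirbp and Kcnn1, appear under different consensus sequences. CTCF matches come first, then NRF1, CREB/ATF, SP/KLF and NFY, which are typical of promoters, and last EBF and PU.1, which act in blood cells.
CTCF near Ccne1 (chr7:38085003-38085074, plus strand): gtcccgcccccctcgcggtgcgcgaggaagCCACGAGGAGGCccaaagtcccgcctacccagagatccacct
CTCF near Cirbp (chr10:80159989-80160060, minus strand): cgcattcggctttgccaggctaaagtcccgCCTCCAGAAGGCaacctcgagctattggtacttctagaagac
CTCF near Rxfp2 (chr5:150118516-150118587, plus strand): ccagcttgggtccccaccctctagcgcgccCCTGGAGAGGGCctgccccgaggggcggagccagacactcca
CTCF near Chd2 (chr7:73618485-73618556, minus strand): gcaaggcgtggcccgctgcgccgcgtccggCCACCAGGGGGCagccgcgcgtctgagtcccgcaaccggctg
CTCF near Trpv4 (chr5:114667691-114667762, minus strand): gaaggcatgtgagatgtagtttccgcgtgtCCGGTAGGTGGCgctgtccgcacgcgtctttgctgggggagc
NRF1 near Kcnn1 (chr8:70865719-70865787, plus strand): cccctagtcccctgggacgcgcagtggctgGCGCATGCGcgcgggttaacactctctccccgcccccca
NRF1 near Morn3 (chr5:123057850-123057918, plus strand): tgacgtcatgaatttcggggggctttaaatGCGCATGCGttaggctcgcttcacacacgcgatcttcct
CREB/ATF near Tex44 (chr1:86434531-86434598, plus strand): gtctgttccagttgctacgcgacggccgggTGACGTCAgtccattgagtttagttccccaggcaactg
SP/KLF near Wnt7b (chr15:85634503-85634570, minus strand): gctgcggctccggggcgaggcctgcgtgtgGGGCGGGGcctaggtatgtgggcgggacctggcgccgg
SP/KLF near Ccne1 (chr7:38084909-38084976, minus strand): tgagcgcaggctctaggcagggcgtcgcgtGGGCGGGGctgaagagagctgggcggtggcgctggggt
NFY near Trappc9 (chr15:73067548-73067614, minus strand): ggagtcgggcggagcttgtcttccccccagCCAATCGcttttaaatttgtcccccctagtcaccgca
NFY near Cirbp (chr10:80159937-80160003, minus strand): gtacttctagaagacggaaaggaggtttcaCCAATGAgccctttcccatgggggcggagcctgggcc
EBF near Kcnn1 (chr8:70865696-70865764, plus strand): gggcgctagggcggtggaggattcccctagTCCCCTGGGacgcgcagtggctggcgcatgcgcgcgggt
EBF near Cirbp (chr10:80159922-80159990, minus strand): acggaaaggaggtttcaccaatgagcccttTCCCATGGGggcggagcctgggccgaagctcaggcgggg
PU.1 near Ccnd3 (chr17:47508130-47508197, plus strand): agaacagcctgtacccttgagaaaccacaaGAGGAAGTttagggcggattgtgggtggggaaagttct
PU.1 near Btg1 (chr10:96751640-96751707, minus strand): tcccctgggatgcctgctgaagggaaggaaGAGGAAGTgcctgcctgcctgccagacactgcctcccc

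Among the 534 strongest distal peaks, signal in replicate 2 ran from 6.80 to 58.1 with a median of 9.18. Signal of the best overlapping peak in replicate 1 ran from 3.83 to 66.0 with a median of 5.89. The scale of the signal is the authors' own and is not documented in the labels or headers, so ranks within each list served to set the libraries side by side. The median member stood at the top 6.64% of replicate 2 and at the top 11.96% of replicate 1. In 481 of the 534 (90.1%) the rank was lower in replicate 1, which the rule favours because it asked more of replicate 2, and 218 (40.8%) stood in the top 10% of both lists.

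Only 10.1% of the 6070 top peaks were distal, against 62.8% of all peaks of replicate 2. The distal share was thus far lower among the strongest peaks than in the list as a whole. At the limit of replicate 2, the last members inside had signals of 6.80, 6.81 and 6.81 and lay nearest to Hist2h2bb, Ptp4a3 and Paip2b. The first distal peaks outside had signals of 6.78, 6.77 and 6.76 and lay nearest to Serpinb1a, Abcg1 and Clptm1. At the limit of replicate 1, the members just inside had 3.83, 3.84 and 3.85, nearest to Arid1a, Nfatc3 and Btbd19. Just outside stood 3 peaks with 3.82 each, nearest to Anapc16, Ldhal6b and Rnf19b.

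**Figure D1:**
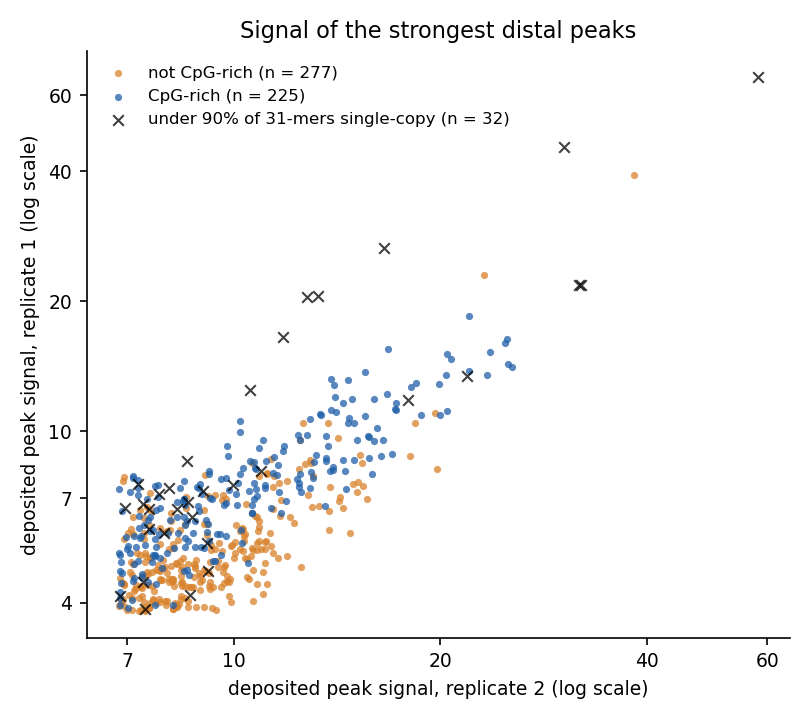
Deposited peak signal of each of the 534 strongest distal peaks in replicate 2 (horizontal) and of its best overlapping peak in replicate 1 (vertical), both on log axes in the authors' units. Blue points are CpG-rich, orange points are not, and crosses are the 32 peaks with under 90% of 31-mers found once in the genome, which hold several of the highest signals in replicate 1.

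The peak with the best rank in both lists was intergenic, at chrX:143482981-143483140, 35530 bases from the start site of Pak3, a kinase that acts downstream of small GTPases. Its signal was 66.0 in replicate 1 and 58.1 in replicate 2, and 71.5% of its 31-mers occurred once in the genome. The best ranked fully single-copy member was chr15:99735661-99735920, in an exon 10173 bases from the start of Cox14, an assembly factor of cytochrome c oxidase. It had 39.1 and 38.3, ranks 5 and 4. Next came an exonic peak at chr13:58177621-58177800 near Idnk, with 23.0 and 23.2 at ranks 10 and 179. Neither of these 2 was CpG-rich.

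The next 8 single-copy members by mean rank were all CpG-rich. A window was counted as CpG-rich if the 200 bases around the midpoint held at least 50% G and C and CpG at 0.6 or more of the number that base composition predicts. The peak near Wnt7b, a Wnt ligand, at chr15:85634501-85634720 had a signal of 16.3 in replicate 1 and 25.1 in replicate 2. The one near Ccne1, which encodes cyclin E1 of the G1 to S transition, at chr7:38084901-38085120 had 16.0 and 24.8. The one near the zinc finger gene Zfp395, at chr14:65343841-65344020, had 18.5 and 22.0. These 3 peaks had similar signals, with the Zfp395 peak the highest of them in replicate 1 and the lowest in replicate 2.

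The peak near Kcnn1, a calcium-activated potassium channel gene, at chr8:70865501-70865960, had 15.3 and 23.6 and 11 and 10 footprints. Peaks near Morn3 (14.3 and 25.1), Trappc9 (14.1 and 25.4), Cirbp, a cold-inducible RNA-binding protein gene (13.5 and 23.4), and Angptl6 (13.8 and 22.0) completed the 10. In all 8 the signal was higher in replicate 2, whose units need not equal those of replicate 1. The peaks near Wnt7b, Kcnn1 and Angptl6 had a start site of another annotation within 1 kb and the other 5 did not.

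Base composition set the strongest distal peaks apart from other distal peaks. Of the 534, 234 were CpG-rich, or 43.8% (95% Wilson interval 39.7 to 48.1, which like all intervals here covers counting error only). Among the 37549 other distal peaks the share was 5.54% (5.31 to 5.78), and among the 5455 promoter peaks of the top 10% it was 89.5% (88.7 to 90.3). Among the 81 left out for their rank in replicate 1 it was 6.17% (2.67 to 13.7). Over all distal peaks, split by signal into 10 bins of equal number, the share fell from 17.3% in the strongest bin to 7.25% in the second and stayed between 3.89% and 5.10% in the other 8. Over all distal peaks the rise was thus found at the top of the ranking of replicate 2 only. The share also went with the match in the top 20% of replicate 1. Between the top 10% and 20% of replicate 2, 33.9% of matched distal peaks were CpG-rich and 9.92% of unmatched ones. This split uses the values of the rule, so it is a description. Median GC content was 60% in the 534 and 51.5% in the other distal peaks.

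**Figure D2:**
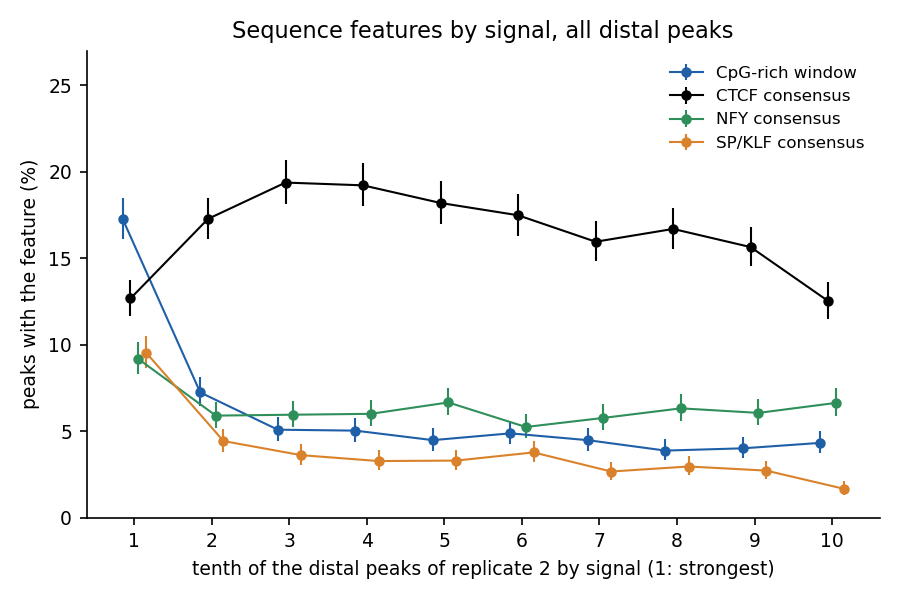
Share of distal peaks of replicate 2 that are CpG-rich or hold a CTCF, NFY or SP/KLF consensus, in 10 bins of signal from strongest to weakest, with 95% Wilson intervals (3808 or 3809 peaks a bin). The CpG-rich, NFY and SP/KLF shares stand highest in the strongest bin, at 17.3%, 9.19% and 9.56%, while the CTCF share stands highest in the third, at 19.4%.

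The CpG-rich members and the rest also differed in rank between libraries. CpG-rich members had a median rank at the top 6.03% of replicate 2 and 8.18% of replicate 1, and 63.3% of them stood in the top 10% of replicate 1. Members that were not CpG-rich had 6.96% and 14.6%, and 23.3% of them stood in the top 10% of replicate 1. Requiring the top 10% in both libraries would keep 218 members, of which 67.9% were CpG-rich. Because rank in both libraries chose the members, these values describe the selection and its result.

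By position, 257 of the 534 were intergenic (48.1%, 43.9 to 52.4), 232 intronic (43.4%, 39.3 to 47.7) and 45 exonic (8.43%, 6.36 to 11.1). Other distal peaks were less often intergenic, at 39.4%, and more often intronic, at 54.6%. The median distance to the nearest start site of any gene was 6458 bases in members and 11261 in other distal peaks. The strongest distal peaks thus lay nearer to annotated starts even beyond the excluded 1 kb, and 17.98% lay within 2 kb against 9.59%. At a limit of 5 kb the shares were 42.5% and 27.2%.

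Other annotations list more start sites than the one the rule used. A start site of the comprehensive GENCODE set, of curated RefSeq transcripts or of computed RefSeq models lay within 1 kb of 162 members (30.3%, 26.6 to 34.4) and of 11.3% (11.01 to 11.65) of other distal peaks. Curated RefSeq transcripts alone accounted for 40 members (7.49%), against 1.25%. Of the 234 CpG-rich members, 94 had such a start site (40.2%) and 140 had none. Without all 162, 372 members remained and 37.6% of them were CpG-rich, still above the 5.54% of other distal peaks. Starts of the tRNA genes described below were not counted here. Some of the 140, and of the 372, therefore lay at a tRNA gene.

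The consensus sequences of most promoter-type factors were more frequent in the 534 than in other distal peaks. The SP/KLF sequence GGGCGGGG was present in 21.9% (18.6 to 25.6) against 3.55%, and in 37.8% of top promoter peaks. The NFY sequence, CCAAT followed by 1 of C or G and then 1 of A or G, was present in 18.5% (15.5 to 22.1) against 6.21%, and in 31.8% of top promoter peaks. NRF1, written GCGCATGCG, was present in 3.56% (2.29 to 5.49) against 0.237%, and CREB/ATF, TGACGTCA, in 3.56% against 0.410%. The ETS sequence CCGGAAGT was present in 2.996% against 0.844% and the MYC/USF sequence CACGTGAC in 3.37% against 1.00%. YY1, AAGATGGCG, was present in 3 members (0.562%) against 0.290% of other distal peaks and 3.23% of top promoter peaks, with overlapping intervals for members and other distal peaks.

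At least 1 of these 7 sequences was present in 241 members (45.1%, 41.0 to 49.4), in 11.9% of other distal peaks and in 72.0% of top promoter peaks. Some of these sequences hold CpG themselves. Read backwards, the NFY letters were found in 36 members against 99 read forwards, and those of NRF1 in 0 against 19. The SP/KLF letters were found in 98 against 117. Their backward form differs only in the place of the C, and GGGGCGGGG holds both forms. The backward SP/KLF count is therefore no independent background. In windows of the same length 1 kb to either side of the members, the shares were 3.09% for SP/KLF, 6.27% for NFY and 0% for NRF1. CpG-rich members held at least 1 of the 7 in 63.7% (57.3 to 69.6), CpG-rich other distal peaks in 25.9% (24.03 to 27.79).

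Members that were not CpG-rich held most of 6 blood cell sequences more often than CpG-rich members. EBF, TCCCNNGGG, was present in 14.3% (10.8 to 18.8) of these 300 and in 4.70% (2.65 to 8.22) of the 234 CpG-rich members, with 5.69% in other distal peaks. The EBF matches printed above, near Kcnn1 and Cirbp, lay in CpG-rich members. PU.1, GAGGAAGT, was present in 11.7% (8.51 to 15.8) and 2.14% (0.916 to 4.90), with 7.84% in other distal peaks. RUNX, TGTGGTT or TGCGGTT, was present in 13.3% (9.95 to 17.7) and 6.41% (3.92 to 10.3), with 10.1% in other distal peaks. The E box of E proteins, CAGGTG or CAGCTG, was present in 40% and 23.5%, with 35.4% in other distal peaks. In the members that were not CpG-rich, the intervals of EBF and PU.1 lay above those of other distal peaks. For PU.1 this was narrow, with bounds of 8.51% and 8.11%. The intervals of RUNX and the E box overlapped those of other distal peaks. The octamer ATGCAAAT (2.33%) and the ETS-IRF composite GGAANNGAA (8.67%) were not above the 2.35% and 9.10% of other distal peaks. CpG-rich members held the octamer in 3.42%, with overlapping intervals. At least 1 of these 6 sequences was present in 65.3% (59.8 to 70.5) of members that were not CpG-rich. Over all 534 the share was 52.6% (48.4 to 56.8), not above the 55.5% of other distal peaks.

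Of other sequences, GATA, written GATAAG with an A or a T before it, is bound by factors of red cells and T cells. It was present in 7 members (1.31%, 0.636 to 2.68) against 6.22% (5.98 to 6.47) of other distal peaks. Read backwards, its letters were also rarer in members, at 0.749% against 2.40%. The part of base composition in this difference was not tested. HNF1 and HNF4, factors of liver and gut, gave 0 of 534 each, which at an upper Wilson bound of 0.714% is not below the 0.208% and 0.218% of other distal peaks. The octamer ATGCAAAT of B cells was present in 2.81% against 2.35%, with overlapping intervals. AP-1, TGACTCA, was present in 4.31% against 5.43%, also with overlapping intervals.

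**Figure D3:**
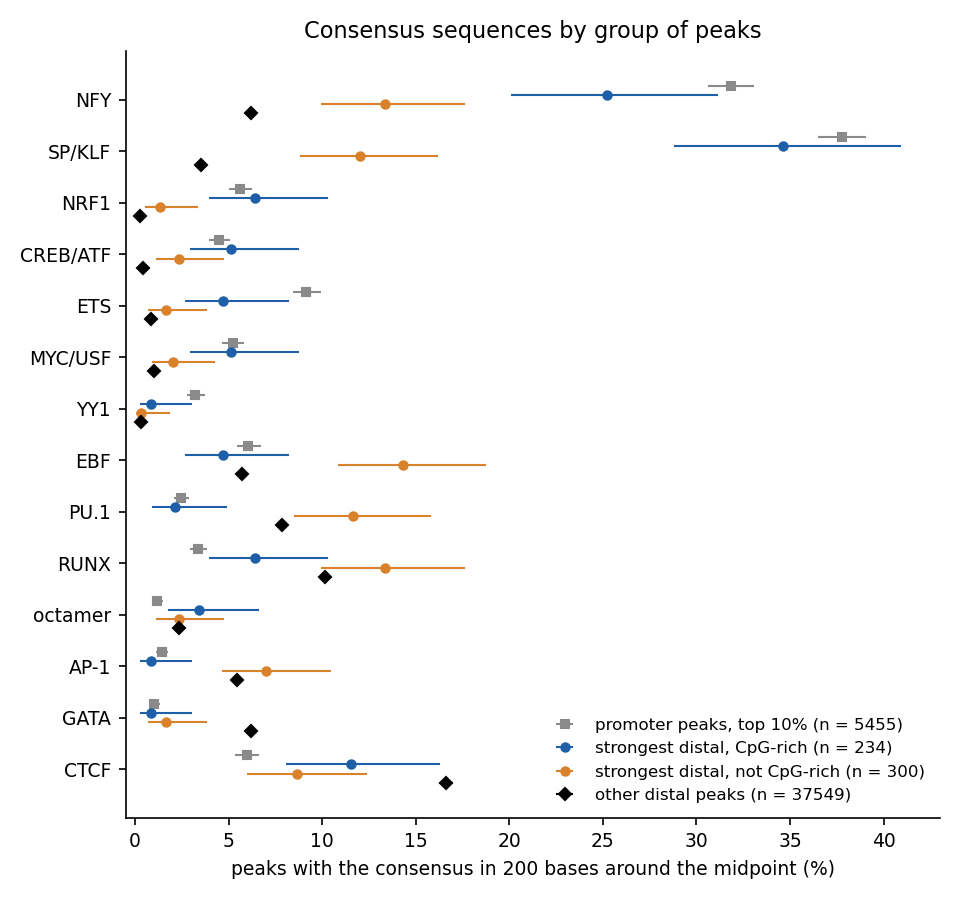
Share of peaks that hold each consensus in the 200 bases around the midpoint, with 95% Wilson intervals, for CpG-rich and other strongest distal peaks, other distal peaks and promoter peaks of the top 10%. CpG-rich members (blue) stand near the promoter peaks (grey) for NFY, SP/KLF, NRF1 and CREB/ATF, and the other members (orange) stand highest for EBF, PU.1 and RUNX.

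CTCF, the insulator protein, was not more frequent among the strongest distal peaks. Its consensus was present in 53 of 534 (9.93%, 7.67 to 12.8) against 16.6% (16.2 to 17.0) of other distal peaks and 5.96% of top promoter peaks. A stricter form was present in 18 (3.37%) against 8.99%. Over the same bins of signal the CTCF share rose from 12.7% in the strongest bin to 19.4% in the third and fell to 12.5% in the weakest. Read backwards, the consensus was found in 6 members, and windows 1 kb away held it in 1.78%.

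This value rested on where the threshold stood and on replicate 1. Of the 2170 distal peaks of replicate 2 that ranked between its top 10% and 20%, 436 overlapped the top 20% of replicate 1, and 38.5% (34.1 to 43.2) of these held the CTCF consensus. Of the 1734 that did not, 6.86% (5.77 to 8.15) held it. Among the 81 peaks of the top 10% without a match, 2 held it (2.47%). With the top 20% of replicate 2 in place of the top 10%, 970 peaks would be members and 22.8% (20.3 to 25.5) would hold CTCF, above the share of other distal peaks.

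PU.1 and RUNX went the other way. PU.1 was present in 18.5% (11.6 to 28.3) of the 81 unmatched and 7.49% (5.55 to 10.04) of the 534 matched top peaks, and in 12.2% and 2.29% of unmatched and matched peaks between 10% and 20%. RUNX was present in 18.5% and 10.3%, and in 14.3% and 6.42%. Within the members the same order held. The median member with PU.1 stood at the top 6.77% of replicate 2 and 15.2% of replicate 1, the one with CTCF at 6.98% and 8.68%, and the one with SP/KLF at 5.95% and 7.83%. Of the 40 members with PU.1, 0 ranked higher in replicate 1, and of the 53 with CTCF 13 did, beside 53 of all 534 members. These ranks and the split into matched and unmatched peaks use the values of the rule, so they are a description.

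**Figure D4:**
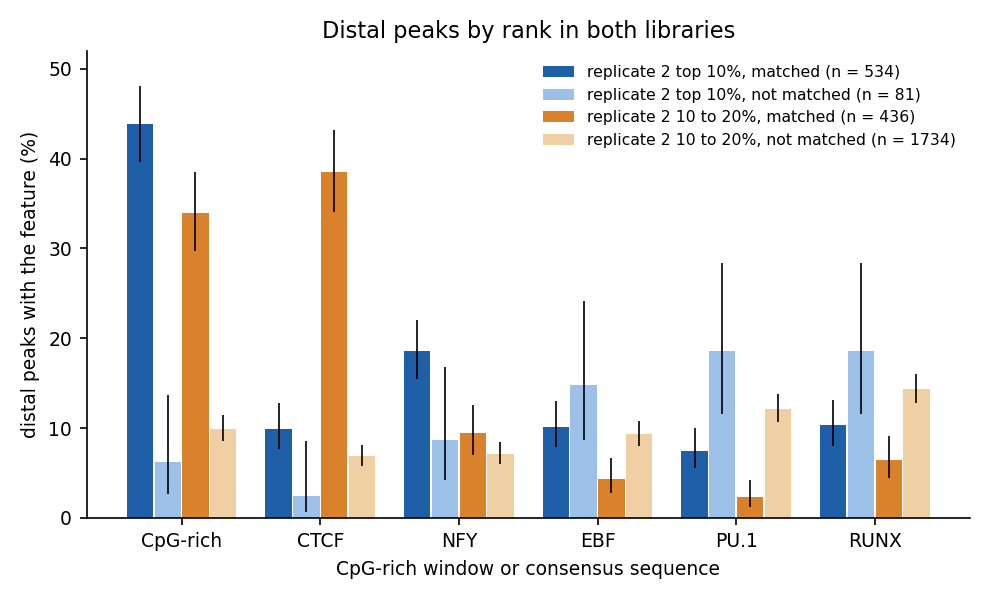
Share of distal peaks that are CpG-rich or hold a consensus, for the top 10% of replicate 2 and the next 10%, split by whether they overlap the top 20% of replicate 1, with 95% Wilson intervals. CTCF stands at 38.5% in matched peaks of the second band against 9.93% in the 534 members, and PU.1 and RUNX stand higher in unmatched than in matched peaks of each band.

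The 53 members with CTCF held 56 matches, 28 on each strand. Of 36 neighbouring pairs on a chromosome, 19 pointed the same way, 10 faced each other and 7 pointed apart, with a median gap of 16023 kb. The order of such distant pairs describes only the members. The member in an intron near Ctcf itself, chr8:105622481-105622680, held the strict consensus and had signals of 8.64 and 11.3.

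Footprints were denser in the strongest distal peaks than in weaker ones. The median member had 4 footprints in each library, other distal peaks 1 in replicate 1 and 2 in replicate 2, and top promoter peaks 4 and 5. Of the 534, 2 had none in replicate 1 and 0 had none in replicate 2, whereas 36.6% and 5.62% of other distal peaks had none. Footprints and signal come from the same cuts, and the part of signal in the number of footprints was not tested. The run of bases that the deposited cut rate track lists around the midpoint, at a false discovery rate of at most 0.05, had a median of 638 and 717 bases in members and 217 and 288 in other distal peaks. In 109 members (20.4%) and 158 (29.6%) it reached 1 kb.

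Over CTCF matches, a footprint covered at least 50% of the consensus in 47 of 53 members in replicate 1 (88.7%) and 48 in replicate 2 (90.6%), and in 46 in both (86.8%, 75.2 to 93.5). In other distal peaks the shares were 77.4% in replicate 1, 93.4% in replicate 2 and 76.7% in both. In replicate 2 the share in members was thus not above that of other distal peaks. All 18 members with the strict form were covered in both libraries. Of the CTCF sequences printed above, the one near Chd2 lay under footprints of 43 bases in each library and the one near Trpv4 under footprints of 28 and 29. The one near Cirbp lay under footprints of 20 and 21 bases. The matches near Ccne1 and Rxfp2 lay under none in either library. Matches of this consensus in CpG-rich members were thus not all footprinted. Footprints over CTCF had a median width of 30 and 32 bases. The footprint that covered the match reached farther after it (10.5 and 11 bases) than before it (6 and 7). With any footprint counted, the order at 20 bases from the centre was the reverse. At 20 bases before the centre, 55.4% and 66.1% of CTCF matches in members lay inside a footprint. At 20 bases after it the share was 16.1% and at 40 bases before it 7.14%, in each library.

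The centre of each of the 35 NRF1 matches of 19 members, overlapping matches on both strands included, lay inside a footprint in both libraries. In other distal peaks 63.4% and 88.5% of centres did. Of 19 members with CREB/ATF, 18 and 19 had the match covered, and of 152 SP/KLF matches 90.8% and 88.8% had their centre covered, against 30.3% and 60.6% in other distal peaks. The printed NRF1 matches near Kcnn1 and Morn3 lay under footprints of 21 and 21 bases in replicate 1 and 22 and 47 in replicate 2. EBF matches were covered in 42 and 46 of 54 members (77.8% and 85.2%), against 20.6% and 51.9% in other distal peaks.

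NFY, PU.1 and RUNX matches were covered less often. NFY was covered in 42 and 58 of 99 members (42.4% and 58.6%), PU.1 in 6 and 11 of 40 (15% and 27.5%) and RUNX in 16 and 22 of 55 (29.1% and 40%). In other distal peaks the shares were 7.94% and 17.9% for NFY, 9.51% and 18.6% for PU.1 and 13.8% and 30.9% for RUNX. Footprints were denser in members at any position. Of NFY matches in members, 36.9% and 48.5% had their centre inside a footprint. At 41 to 60 bases from the centre the mean share was 24.3% and 31.9%. This background was not taken for PU.1 or RUNX. Of the 7 members with GATA, 0 had the match covered in either library, where an upper Wilson bound of 35.4% still allows several.

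**Figure D5:**
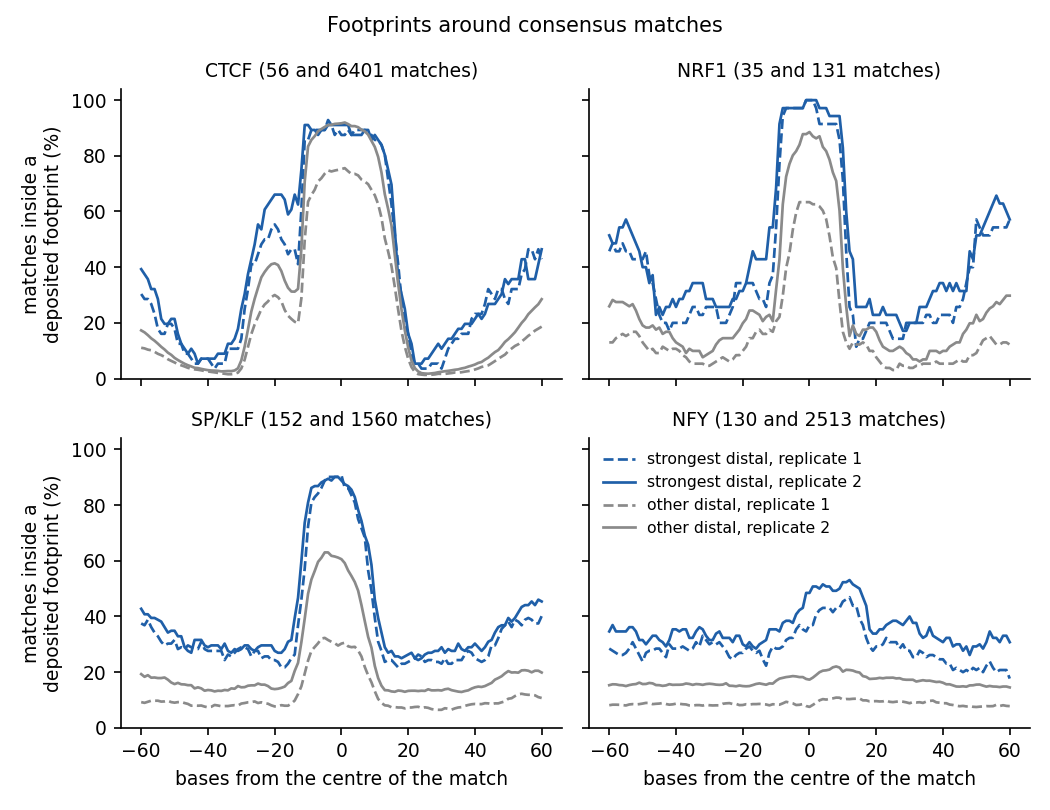
Share of consensus matches whose position lies inside a deposited footprint, by distance in bases from the centre of the match, for strongest distal peaks (blue) and other distal peaks (grey) in replicate 1 (dashed) and replicate 2 (solid). At the centre, NRF1 in the strongest peaks stands at 100% in both libraries, CTCF at 87.5% and 91.1%, and NFY at 36.9% and 48.5%.

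Transfer RNA genes made up a small part of the strongest distal peaks. These genes were taken from the RefSeq annotation of the same assembly, which lists 403. Of the 534, 14 overlapped a tRNA gene (2.62%, 1.57 to 4.35), against 0.330% (0.277 to 0.394) of other distal peaks and 0.165% of top promoter peaks. Of the 14, 12 were CpG-rich. Their median rank was the top 7.27% in replicate 2 and 8.07% in replicate 1, and 12 of 14 stood in the top 10% of replicate 1, against 218 of all 534. Over all 403 tRNA genes, 170 (42.2%) overlapped some peak in replicate 1 and 187 (46.4%) in replicate 2.

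Printed here whole on their own strand are 4 of the 14 genes, the 3 best ranked and another tRNA-His gene, with the B box letters GGTTCGA or GGTTCAA in capitals, to show the sequence that most of these genes share. The capitals mark a part of the gene, which in several cases lies partly or wholly outside the peak.
n-TNgtt14, tRNA-Asn (chr5:149229001-149229074, minus strand): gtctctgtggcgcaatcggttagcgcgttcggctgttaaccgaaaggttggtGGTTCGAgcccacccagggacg
n-TRccg1, tRNA-Arg (chr11:107012866-107012938, plus strand): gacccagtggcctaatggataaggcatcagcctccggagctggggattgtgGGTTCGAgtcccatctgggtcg
n-THgtg3, tRNA-His (chr2:122377363-122377434, minus strand): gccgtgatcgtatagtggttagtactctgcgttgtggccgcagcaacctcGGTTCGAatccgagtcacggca
n-THgtg8, tRNA-His (chr3:96500366-96500437, minus strand): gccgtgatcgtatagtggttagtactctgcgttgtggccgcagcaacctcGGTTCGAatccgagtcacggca

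The peak at the tRNA-Asn gene, chr5:149229061-149229300, had a signal of 11.1 in replicate 1 and 14.1 in replicate 2. The peak at the tRNA-Arg gene had 10.97 and 13.4, the one at n-THgtg3 had 9.54 and 12.5, and the one at n-THgtg8 had 6.66 and 6.95. The 2 tRNA-His genes have the same letters, but their peaks reach beyond the gene, and 91.8% and 70.0% of the peaks' 31-mers occur once. The midpoint lay before the start of the gene in 12 of the 14, by 4 to 107 bases, and 12 and 32 bases inside it in the other two, n-TSgct3 (tRNA-Ser) and n-TYgta10 (tRNA-Tyr). The B box letters were present in 13 of the 14 genes, and the tRNA-Ile gene n-TIaat17 did not hold them.

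RefSeq also lists 1015 enhancers in this genome. Of the 534, 12 overlapped 1 (2.25%, 1.29 to 3.89), against 0.557% (0.486 to 0.637) of other distal peaks. A member on an element of the VISTA collection lay at chr12:85455221-85455520, 18519 bases from Fos, an immediate early transcription factor gene, with signals of 8.47 and 13.1. Another lay near Btg2, an antiproliferative gene, with 7.47 and 15.4, and had a start site of another annotation within 1 kb. All 3 members nearest to Btg2 lay on listed enhancers. VISTA elements are tested in mouse embryos, and not all of the 12 come from that collection. Activity of these elements in spleen was not measured here.

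Genes of the B cell list had strongest distal peaks nearby more often than genes in general. Within 50 kb of a member's midpoint lay a start site of 6 of 22 B cell genes (27.3%), against 1094 of 21924 protein-coding genes (4.99%). The 6 were Pax5, Cd79b, Spib, Ebf1, Cd74 and Pou2f2, and each was near a member that was not CpG-rich, which holds for 2.90% of all coding genes. A share above 4.99% was not particular to this list. It was 20% of 10 NK and cytotoxic genes and 16.7% of 12 housekeeping genes. For members that were not CpG-rich, the housekeeping share was again 16.7%. The genes of these lists and the members were chosen with results of these data known, so the counts are a description. Any distal peak at all lay within that distance of 95.5% of the B cell genes and of 69.8% of all coding genes.

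Pax5, the transcription factor that keeps B cell identity, had a CpG-rich member at chr4:44704481-44704740, 5797 bases from its nearest start site, with a signal of 7.44 in replicate 1 and 12.4 in replicate 2. It overlapped a DNase I hypersensitive site that RefSeq lists as HS-8. Another member at chr4:44706081-44706280, on HS-6, had 4.32 and 7.18. Cd79b, which encodes a receptor chain that signals in B cells, had one at chr11:106308241-106308460, 6178 bases away, with 5.82 and 11.3. Spib, an ETS factor of B cells, had an exonic one at chr7:44534401-44534540, with 4.78 and 10.7. All 4 ranked lower in replicate 1 than in replicate 2, as did 481 of all 534 members (90.1%). RefSeq gives the positions of both hypersensitive sites as approximate. The Pax5 member on HS-8 and the Spib member had a start site of another annotation within 1 kb. The members on HS-6 and near Cd79b did not.

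Of 23 T cell genes, 2 had a member within 50 kb (8.70%). These were Ccr7, a chemokine receptor of naive T cells and B cells (4.38 and 9.19), and Lck, a kinase of the T cell receptor (4.73 and 7.48). Around the T cell receptor constant gene Trac lay 2 members, at 12940 and 7060 bases, with 4.52 and 8.99 and with 4.36 and 8.62. The nearer of these held RUNX and GATA matches. Of 10 NK and cytotoxic genes 2 had one, Klrb1c and Nkg7, the latter at 28501 bases and nearer to another gene, Vsig10l. The members of Ccr7 and Nkg7 had a start site of another annotation within 1 kb, and those of Lck, Trac and Klrb1c did not.

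Macrophage and monocyte (15 genes), dendritic cell (10) and plasma cell (7) genes had 0. In other lists single genes had one, Mpo of neutrophils, Klf1 of red cells, Itga2b of megakaryocytes and Col1a1 of stroma, of which only Itga2b was itself the nearest coding gene. Its member at chr11:102467121-102467340 lay 2652 bases from the start and had 6.72 and 8.87. Of 20 genes of other tissues 2 had one, Vil1 and Mylpf, both with a member nearer to another gene. Of 12 housekeeping genes 2 had one, Actb (5.01 and 9.40) and Ywhaz (11.01 and 19.6), and of 10 genes of chromatin architecture 1 had one, Ctcf. The members of Klf1, Itga2b and Ywhaz had a start site of another annotation within 1 kb, and the others named here did not. Nearness alone does not tie a member to a gene. No member lay within 50 kb of H19, Igf2, Xist, Hbb-bt, Hba-a1, Ighm, Hoxa9, Hoxd9 or Myc, nor of 4933407K13Rik.

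The members had 460 nearest protein-coding genes, of which 64 were nearest to 2 or more and 8 to 3 or more. Zfp36l2, an mRNA decay factor of lymphocytes, and Grk2, a receptor kinase, had 4 each, none of them CpG-rich. Those of Zfp36l2 lay 7006 to 73806 bases away with signals of 4.62 to 7.20 in replicate 1 and 7.36 to 10.2 in replicate 2. The 3 of Mnt, a MYC-related repressor gene, were all CpG-rich, lay 1381 to 7701 bases away and had 8.69 to 11.6 and 11.4 to 16.5. These 8 genes were named for their number of members after the values were seen. Of 513 neighbouring pairs on a chromosome, 16 lay within 1 kb and 50 within 10 kb, so some members are parts of 1 accessible stretch and are not independent.

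Members of repeated sequence ranked higher than members in general in replicate 1 but not in replicate 2. Their median rank was the top 8.07% of replicate 1, against 11.96% for all members. In replicate 2 it was 6.99% against 6.64%. Rank is a value of the rule, so this is a description. In 32 members under 90% of the 31-mers occurred once in the reference, and 502 were single-copy (94.0%, 91.7 to 95.7, with 94.5% in other distal peaks). At the very top they were frequent, with 4 of the 5 best mean ranks. The peak at chr9:3002041-3002220 had no single-copy 31-mer, a median of 44 copies and was masked as repeat over its whole window, with signals of 45.5 and 30.3. Neighbouring peaks at chrX:169997961-169998220 and chrX:169998261-169998420 had 6 copies, with 21.9 and 32.1 and with 21.9 and 31.9.

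The 3 members that ranked highest in replicate 1 relative to replicate 2 were all of this kind. They lay near Il31ra (24.6% single-copy, 16.5 and 11.8), Aida (70.9%, 12.4 and 10.6) and Gm8797 (0%, 20.5 and 12.8). The 3 that ranked highest in replicate 2 relative to replicate 1 were single-copy intronic peaks that were not CpG-rich. They lay near Cerk, a ceramide kinase gene (4.19 and 11.1), H2-Eb1, an MHC class II gene (3.86 and 9.43), and Grk2 (4.04 and 10.7). Of the 32, 23 stood in the top 10% of replicate 1, and several were the tRNA gene peaks described above.

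The handling of reads from repeated sequence is not given in the sources used here. Its part in these signals was not tested. In 2 members in the intron of the noncoding gene Firre, 65.4% and 46.9% of 31-mers occurred once, with signals of 8.08 and 10.95 and of 8.55 and 8.55. A single member lay on the Y chromosome, at chrY:90744601-90744820, while the mice are labelled female. Its signals were 6.77 and 7.37 and 8.42% of its 31-mers occurred once. Without the 32, 44.8% of members were CpG-rich and 9.76% held CTCF.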

How the data were processed

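DNase-seq libraries of 2 biological replicates, 1 group of female mice aged 36 days, were analysed from the processed files on mm10. Per the readme files deposited with the libraries, peaks, footprints and the cut rate track were made from each library's own alignments without pooling. The sources used here do not name the aligner or the callers. The peak signal is the authors' value per peak on an unstated scale, so depth is unknown and signal served only to rank peaks within a list. The deposited footprints carry a constant FDR (a q-value) of 0.01 and the deposited cut rate track lists an FDR up to 0.05.

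Members were found by the stated rule with GENCODE vM21 start sites. Sequence and the RefSeq annotation came from GRCm38.p6, the same assembly. Every 31-mer of a peak was counted in the genome on both strands. For 28 factors, consensus sequences were searched on both strands. Windows 1 kb away and letters read backwards gave backgrounds, except that the backward SP/KLF letters are close to the forward ones. Gene lists, landmarks and named members followed fixed rules: the best ranked, those near list genes, those at each limit and those that differ most between libraries. The members and lists were chosen with earlier results of these data known. The split by CpG content, the tRNA genes, enhancers, other start sites, bands of rank and counts per nearest gene were added after values were seen. No test was run, as no groups exist. Shares carry 95% Wilson intervals. Scripts used Python 3.11.15, numpy 2.4.6, pandas 2.3.3 and scipy 1.17.1. Their functions for overlap, start sites, consensus search and 31-mer counts were tested on simulated data.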

Additional observations from a re-analysis of the deposited data

How the results depend on the processing

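Of 151 alternatives, 96 left a value within its counting interval, or a count within 1.5 times, and 55 moved it. The median of 4 footprints per member and the share of CTCF members with a footprint moved under none that was run. With the top 5% of replicate 2 there were 163 members, 55.2% CpG-rich, 26.99% with NFY and 29.5% with SP/KLF. With the top 20% there were 970, with CTCF in 22.8%, CpG-rich 39.4%, NFY 14.4% and EBF 7.53%. With 500 bases around start sites 48.4% were CpG-rich and the median distance was 4419 bases. With 2 kb 52.7% were intergenic and the distance was 8258. With 5 kb there were 307 members, 39.4% CpG-rich, 17.6% with SP/KLF, 56.0% intergenic and a distance of 12940. With coding start sites only, 49.3% were CpG-rich and the distance was 4142. The longer lists gave 1281 members, 29.6% CpG-rich, 12.6% with NFY and 16% with SP/KLF. The top 10% of replicate 1 gave 218 members, CTCF in 14.2%, single-copy 89.4%, CpG-rich 67.9%, NFY 25.2%, SP/KLF 33.5% and EBF 7.80%. Members taken from replicate 1 and matched to replicate 2 numbered 227, with CTCF in 13.2%, single-copy 88.1%, CpG-rich 65.2%, NFY 23.4%, SP/KLF 32.6% and EBF 7.49%. Without members near other start sites, 37.6% were CpG-rich, 18.01% held SP/KLF, 53.2% were intergenic and the distance was 7462. The strict CTCF form gave 3.37%, windows of 100 bases 5.99% and of 400 bases 13.3%. Asking for 50% of 31-mers gave 97.6% single-copy, and leaving out repeated members 100% by construction. The cause of these changes was not tested.

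Leaving out replicate 1 or replicate 2 gave 227 to 615 members, CTCF in 8.94% to 13.2%, single-copy 88.1% to 94.6%, CpG-rich 38.9% to 65.2%, NFY 17.2% to 23.4%, SP/KLF 20.3% to 32.6%, EBF 7.49% to 10.7%, intergenic 47.5% to 50.2% and a distance of 5944 to 6696 bases. No paired analysis was possible because there is 1 group only. Depth is not given in the sources used here, so how far it limits weaker peaks is unknown.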
